A study of Drosophila melanogaster with 2 samples.

Results

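The Antennapedia complex of Drosophila is a run of homeobox genes on chromosome arm 3R, and its accessible chromatin was described in cultured D17 cells by 8 member genes and the spaces between them. The members were lab, pb, zen, bcd, Dfd, Scr, ftz and Antp, in the order of their coordinates. Every deposited region on 3R that overlapped 6656427 to 7004228 (dm6, from lab to Antp with flanks of 5 kb) was taken, which gave 59 of the 26571 regions in the peak list. The assay was ATAC-seq, which uses a transposase to place sequencing adapters in open DNA. There was 1 group of 2 libraries of ML-DmD17-c3, an untreated cell line that comes from the larval haltere disc, the precursor of the balancing organ of the fly. The labels give no genotype, and nothing in them says that the libraries came from separate cultures. The authors deposited 1 peak list that names no replicate, so each region has 1 value for the group, with no SD, and no comparison between samples could be made. It was assigned to D17 because no other cells are among the samples, although its region names carry the letters HD and not D17, and what HD stands for is not explained there. In a bulk measurement, a lower signal from fewer cells with an open site and from less opening in each cell cannot be told apart.

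Hox genes encode homeodomain transcription factors that give segments along the body axis their identity, and they lie in clusters where gene order follows the order of the body regions. In flies the Antennapedia complex serves the head and the front of the thorax, and the bithorax complex serves the rear of the thorax and the abdomen. In the haltere, identity is set by Ubx of the bithorax complex. The genes lab, pb, Dfd, Scr and Antp act in segment identity. The genes zen, bcd and ftz descend from Hox genes but work in the early embryo: zen in the tissues outside the embryo proper, bcd as a maternal factor for the anterior end, and ftz in segmentation. Polycomb group proteins keep Hox genes silent in cells where they are not used.

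Across the complex the regions were moderate in height, and a single one stood far above the others. The fold enrichment, the authors' value for how far reads at the summit of a region exceed the local background, ran from 1.48 to 7.23 with a median of 2.20. The whole list had a median of 1.90. Of the 59 regions, 39 (66.1%) were above that list median, a value that 50% of the list exceeds by construction. Among the 20% of the list with the highest fold were 20 regions of the complex (33.9%, against 20.1% of the list with ties kept). The 5% with the highest fold held 3 of its regions (5.08%, against 5.01% of the list). The 10% with the highest fold, called strong here, held 6 of them (10.2%), the same share as in the list (10.1%) and a little above that of 3R (8.79%). The complex thus held more than the list's share of regions above the median and in the top 20%, and about the list's share of the top 10% and 5%. Fold also depends on the background in its denominator. The local background was at its lowest value in the list, 44.4 reads, at 44 of the 59 regions (74.6%), against 39.7% of the list. The median pileup was 100 reads in the complex and 101 reads in the list. Among regions at the lowest background only, the median fold was 2.05 in the complex (44 regions) and 1.92 in the list (10546 regions).

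**Figure D1:**
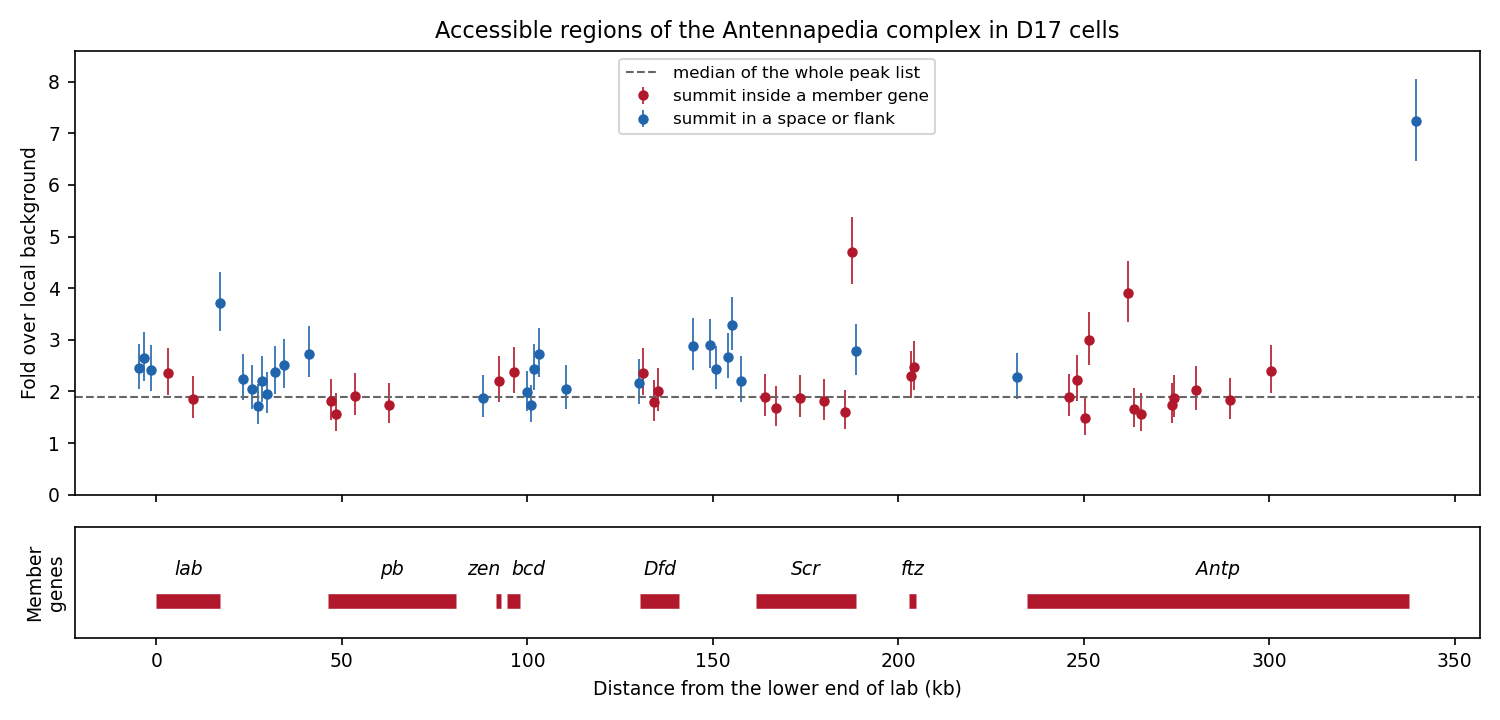
Fold over local background of the 59 regions (y axis) by the distance of the summit from the lower end of lab in kb (x axis), with exact Poisson 95% intervals of the summit pileup and the 8 member genes drawn to scale beneath. The highest point, at 7.23, lies just past the upper end of Antp, and the upper part of Antp before it holds no region.

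Regions were somewhat sparser in the complex than on the arm around it. The complex held 1.70 regions per 10 kb, against 2.00 on 3R and 1.93 in the list as a whole. Regions covered 9.20% of its bases, against 12.9% of 3R and 12.5% of the list's chromosomes. The bithorax complex, measured from Ubx to Abd-B with the same flanks, was sparser, with 33 regions or 1.01 per 10 kb and 4.98% of bases covered. Its median fold was 1.94, and 5 of its regions (15.2%) were strong. Region widths in the Antennapedia complex ran from 210 to 1337 bp, with a median of 463 bp, against 497 bp in the list. The first region inside the interval started at 6656431 with a fold of 2.45, and the nearest region outside it, 908 bp below the lower limit, had 1.40. At the other side the last region inside was the highest of the complex, and the next one outside lay 20604 bp past the upper limit with a fold of 3.92.

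Regions with the summit in a space or flank were higher at the median than those with the summit inside a member. Of the 59 summits, 31 lay inside a member gene and 28 in a space or flank. Those inside members had a median fold of 1.90, and 14 of 31 (45.2%) were above the list median. Those in spaces had a median of 2.43, and 25 of 28 (89.3%) were above it. The pileup had a median of 85 reads in members and 116.5 reads in spaces. More of the regions in spaces had a raised background. Among regions at the lowest background, the median pileup was 84.5 reads in members and 104.5 reads in spaces. At the lowest background only, 13 of 30 regions in members and 13 of 14 in spaces were above the list median, against 50.1% of such regions in the list. The spaces hold other genes, so they are not the same as sequence outside genes. Placement by summit also counts as space some regions at the ends of members. Those at the upper ends of lab (fold 3.70) and Scr (2.78) overlap the gene itself, and that at the lower end of Dfd (2.16) lies just outside it. By summit, all of these are in no protein-coding gene. Summits in no protein-coding gene of any kind numbered 16 in the complex, and 13 of them were above the list median, against 53.6% of such regions in the list. Of the 43 summits in a protein-coding gene, 26 were above it, against 49.1% in the list. Strong regions numbered 3 in members and 3 in spaces, with the one at the upper end of lab among the latter. They made up 3 of the 16 summits in no protein-coding gene, against 16.3% of such regions in the list, and 3 of the 43 in one, against 8.63%.

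**Figure D2:**
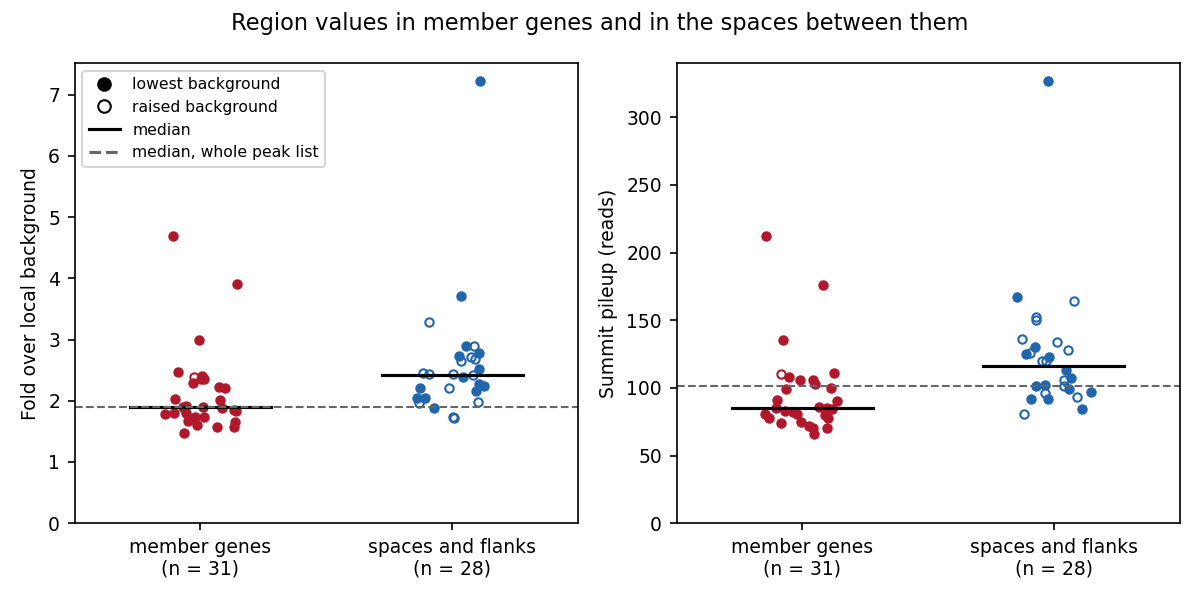
Fold over local background (left) and summit pileup in reads (right) of regions with the summit in a member gene and in a space or flank. Filled points have the lowest background of the list and open points a raised one; the solid bars are the medians, 1.90 and 2.43 for fold and 85 and 116.5 reads for pileup, and the dashed line is the median of the whole list.

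At lab, which acts in the front of the head and in the midgut, the upper end carried the highest region of any member end. This strong region, 3R 6677450 to 6678786, had a fold of 3.70 (95% interval 3.17 to 4.31) from a pileup of 167 reads, and its summit lay 93 bp outside the gene. Of the protein-coding genes with a region at an end, 91.2% had a lower one. With 1337 bp it was also the widest region of the complex. Inside lab were 2 regions, the higher at 6664323 to 6664726 with a fold of 2.36 and the lower with 1.85. No region lay within 500 bp of the lower end of lab, where the nearest summit was 1509 bp away in agt, a DNA repair gene. In the flank below lab, CG1307, twr and agt carried 3 regions with folds of 2.42 to 2.65, which covered 50.3% of its bases. The highest of them was 6657848 to 6658506 in twr.

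Between lab and pb lies a cluster of cuticle protein genes, which encode structural proteins of the exoskeleton, and most of them carried a region of their own. Of the 7 Ccp84A genes, 6 had a region within 500 bp of an end, a feature of 68.6% of all protein-coding genes. The folds at these genes ran from 1.96 at Ccp84Ae to 2.73 at Ccp84Ab (3R 6702024 to 6702830, interval 2.28 to 3.26), and none was strong. The neighbouring cuticle gene Edg84A had a region with a fold of 2.25. Ccp84Aa had none. In each of the 6 Ccp84A genes a summit lay inside the gene itself, and the stretch from Edg84A to Ccp84Aa held 8 regions in 21.5 kb.

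The pb gene, which specifies the mouthparts, had 4 regions in 34.3 kb, and these were among the weaker ones. Their folds were 1.57, 1.74, 1.81 and 1.92, from pileups of 70 to 86 reads. The highest was 3R 6714742 to 6715187, with an interval of 1.54 to 2.36. The region nearest to an end, 6708206 to 6708501, overlapped the window at the lower end of pb but had its summit 609 bp away, with a fold of 1.81 (interval 1.44 to 2.24). The last of these summits was 16.5 kb from the lower end of pb and 17.8 kb from the upper. From 6724589 to 6749248 no region was found for 24.7 kb, a stretch that takes in the upper part of pb, all of zen2, a paralogue of zen, and the gene CG34297. Of the gaps between regions on 3R, 2.17% were longer. The space between pb and zen held 1 region, 6749249 to 6749815, with a fold of 1.87.

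The short genes of the early embryo differed from one another. Regions covered 65.4% of zen and 71.9% of ftz, but 12.8% of bcd. The zen region, 3R 6753324 to 6754498, reached both end windows of this 1.33-kb gene and had a fold of 2.20 (interval 1.80 to 2.68). At ftz there were 2 regions, each overlapping the window at a different end. The summit of the upper one lay inside ftz, 595 bp from the upper end and so outside the 500-bp window. The one at the lower end of ftz, 6863993 to 6865004, had a fold of 2.29 (interval 1.88 to 2.78), and the one at the upper end, 6865360 to 6866060, had 2.47 (interval 2.04 to 2.97). Their intervals overlap, so the ends cannot be ranked. The bcd region, 6757542 to 6758004, lay inside the gene, 1536 bp from its upper end, with a fold of 2.38 (interval 1.96 to 2.87), and neither end of bcd carried a region. The zen and ftz regions were of ordinary height for a gene end: 56.2% and 71.1% of the genes with a region at an end had a lower fold than the highest one at zen and at ftz. No summit lay in the 1.65 kb between zen and bcd.

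Past bcd, regions were packed around Ama, an immunoglobulin-type adhesion protein gene that lies in the complex without a homeobox. Around Ama and the long non-coding RNA gene lncRNA:CR45593 there were 4 regions in 4.75 kb, which covered 56.6% of it. The highest, 3R 6763889 to 6765154, lay in Ama with a fold of 2.72 (interval 2.28 to 3.22). All 4 had a raised background, of 48.6 to 53.0 reads. The next 13.7 kb, around lncRNA:CR42721 and the microRNA gene mir-993 inside it, held 1 region with a fold of 2.05, and no region lay within 500 bp of mir-993. Past that region a gap of 19.6 kb reached almost to Dfd.

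Dfd, which specifies jaw segments of the head, carried regions of middling height at its lower end and in the lower part of its body. The region at the lower end of Dfd, 3R 6791535 to 6791823, had a fold of 2.16 (interval 1.76 to 2.63), with its summit 177 bp outside the gene. The highest inside was 6792428 to 6793015 with a fold of 2.36, and 2 others had 1.79 and 2.01. The upper end of Dfd had no region, and the nearest summit was 3696 bp past it. That region, 6806008 to 6806393, lay in no annotated gene and had a fold of 2.89 (interval 2.42 to 3.43).

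The space between Dfd and Scr held a stretch of neighbouring regions with high pileups. It carries mir-10, a microRNA gene conserved in Hox clusters, and lncRNA:CR42651, which overlaps it. Here 4 regions lay in 8.58 kb, with pileups of 136 to 164 reads and folds of 2.44 to 3.28, all on a raised background of 49.3 to 55.4 reads. The region that started 192 bp above mir-10, 3R 6809774 to 6810965, had a fold of 2.90 (interval 2.46 to 3.39). The strong one, 6816227 to 6816615, lay at the upper end of lncRNA:CR42651 with a fold of 3.28 (interval 2.80 to 3.82). All 6 regions between Dfd and Scr were above the list median. Just below Scr, 4 lysine tRNA genes and 2 genes for 7SL RNA, the RNA of the signal recognition particle, had no region within 500 bp of an end. Whether reads can be placed in these repeated copies was not examined, so the absence of a region does not show that they are closed.

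**Figure D3:**
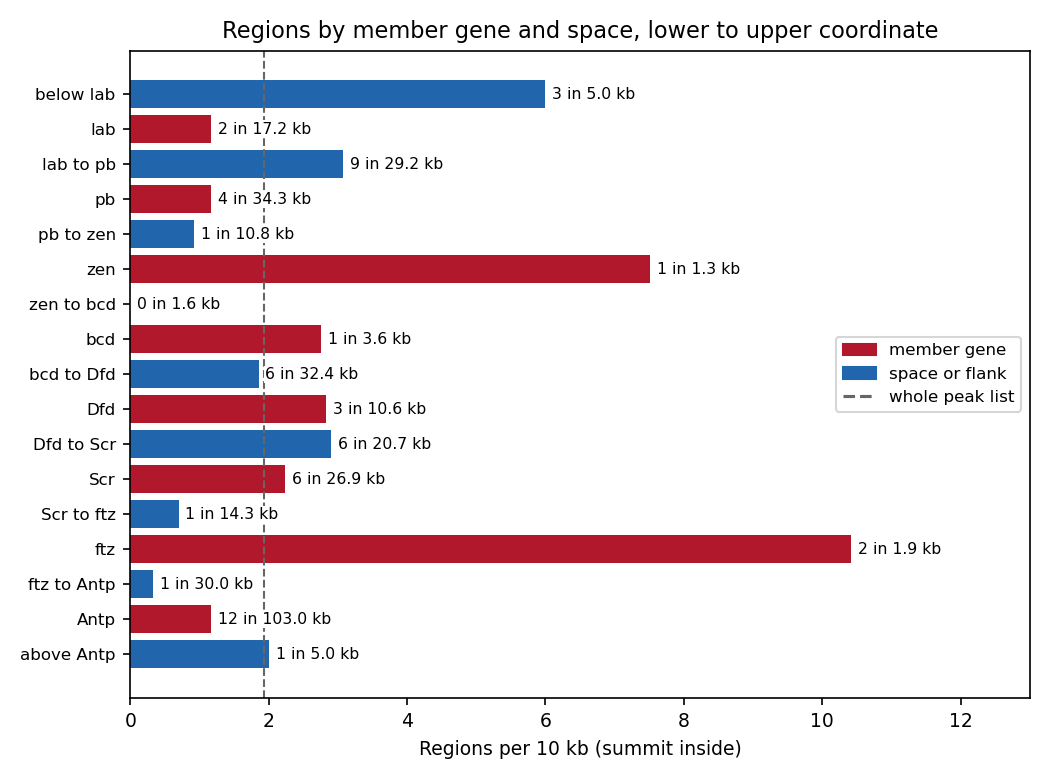
Number of region summits per 10 kb (x axis) in each member gene and each space or flank, from the lowest coordinate at the top, with counts and lengths printed beside the bars. The tall bars of zen and ftz stand for 1 and 2 regions in short genes, while pb, Antp and lab, each near 1.17 per 10 kb, lie under the dashed line of the whole list at 1.93.

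Scr, which acts in the labium and the front of the thorax, had a high site near its upper end and low ones elsewhere. The strong region 3R 6848374 to 6849007 lay inside Scr, 1147 bp from the upper end, with a fold of 4.70 (interval 4.09 to 5.37) from 212 reads. It ranked second in the complex. A separate region, 6849794 to 6850185, covered the upper end itself with a fold of 2.78 (interval 2.32 to 3.31) and its summit 95 bp outside Scr. These intervals do not overlap, so the site inside Scr was the higher of the pair beyond counting error. The other 5 regions in Scr had folds of 1.61 to 1.90 and pileups of 72 to 85 reads. The lower end of Scr had no region. Past its upper end, the space to ftz was empty for 13.8 kb.

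Antp, which specifies the middle of the thorax, is the longest member at 103 kb and had no region within 500 bp of either end. Regions covered 1.68% of the space between ftz and Antp, the lowest share of any gene or space of the complex. It held 1 region in 30.0 kb, 6893200 to 6893704 in lncRNA:CR45559, at a fold of 2.27. Inside Antp were 12 regions. The strong ones were 3R 6923186 to 6923586, whose fold was 3.90 (interval 3.35 to 4.52) from 176 reads, and 6912833 to 6913175, whose fold was 2.999 (interval 2.52 to 3.55). The second is tied with 28 other regions at the very limit of the strong class. The other 10 regions in Antp had folds of 1.48 to 2.40. Of the 12 summits, 10 lay below the midpoint of Antp, and 11 lay in CG46458, an annotated gene that shares its lower end and stops inside it.

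No summit lay in the upper 37.4 kb of Antp, beyond that of its last region at 3R 6961725 to 6962136. The gap of 38.5 kb from the end of this region was the longest in the complex, and 51 of the 6403 gaps on 3R (0.797%) were longer. It ended at the highest region of the complex, 7000627 to 7001193, which had a fold of 7.23 (interval 6.47 to 8.06) from 327 reads. Its summit lay 1767 bp past the upper end of Antp and inside lncRNA:CR45899, a non-coding gene of 932 bp, so it counted at the end of that gene and not of Antp. Its fold was 1.54 times that of the site inside Scr, the next highest, and the intervals do not overlap. It ranked at number 171 of 26571 in the list.

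Set against other genes, the long members were ordinary or sparse in the number of regions they held. Protein-coding genes of 10 kb or more numbered 1984 and held a median of 2.10 regions per 10 kb (middle 50%: 1.07 to 3.07). Dfd had 2.83 and Scr 2.23 per 10 kb, more than 68.6% and 53.4% of these genes. The values of lab, pb and Antp, 1.17 in each case, were above those of 27.2%, 27.3% and 27.2%. By the presence of a region at an end, 6 of the 8 members (lab, pb, zen, Dfd, Scr and ftz) had one and bcd and Antp had none, near the share of 68.6% among all protein-coding genes. Of the 16 member ends, 8 had a region, with the single zen region counted at both ends of zen. No share over all single gene ends was computed, so this count has nothing to be set against. A strong one was found at 1 member, lab, against 11.4% of protein-coding genes. With the window narrowed to 200 bp, 5 members had a region, against 44.1% of protein-coding genes. The same number had a summit inside the 500-bp window, against 44.6%, and a region of the 50% with the higher score, against 48.2%. At 1000 bp it was 6 members, against 80.6%.

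**Figure D4:**
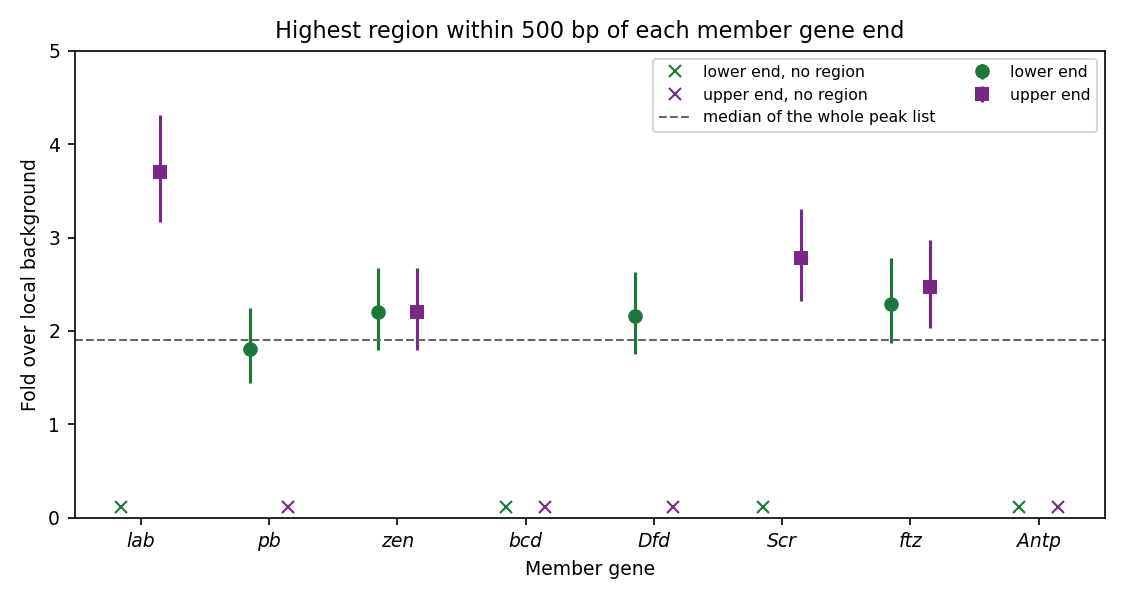
Fold over local background (y axis) of the highest region within 500 bp of the lower and the upper end of each member gene, with exact Poisson 95% intervals; crosses near 0 mark ends with no region and have no value. The upper end of lab is highest at 3.70, and bcd and Antp have crosses at both ends.

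Of the other annotated genes in the interval, 21 of 41 had a region at an end, against 62.7% of annotated genes of any kind. By kind, a region was found at 11 of 15 protein-coding genes, near the 68.6% of all protein-coding genes. It was found at 9 of 18 genes for long non-coding RNAs, 1 of 2 microRNA genes and 0 of 6 tRNA and 7SL genes. No share over all genes of these other kinds was computed, so their counts have nothing to be set against. Neighbours share regions here, so these counts are not of independent sites. Strong regions at the ends of other genes were those of lncRNA:CR42651 and lncRNA:CR45899 described above.

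A list of 11 genes took in factors that act with Hox proteins, eve, cad and the Hox genes of the bithorax complex. Some carried a region higher than the highest inside an Antennapedia member, 4.70 in Scr. These were tsh and disco at an end, and hth, tio, disco-r and Abd-B inside the gene. Of the bithorax genes, only Abd-B was among them. The region in disco-r, at 4.78, was within the interval of the Scr site (4.09 to 5.37), so it was not higher beyond counting error. Against the highest region of the whole complex, 7.23 in the flank above Antp, those in tio (6.91) and disco-r were lower. Of the 11 genes, 8 had a region at an end, near the 68.6% of all protein-coding genes. A strong one was found at 5 (tsh, tio, disco, disco-r and eve), against 11.4% of all protein-coding genes. None of these is a bithorax gene, and no test was made of either count. The trunk factor tsh had a fold of 10.3 and its paralogue tio 3.63, while disco, which works with head Hox genes, had 9.57 and its paralogue disco-r 4.37. The pair-rule gene eve had 3.11 and the posterior factor cad 2.62. Of the DNA-binding partners of Hox proteins, exd had 2.07 at an end, and hth had none at an end but a region of 10.5 inside. In the bithorax complex the highest folds inside the genes were 4.12 in Ubx, 2.38 in abd-A and 8.32 in Abd-B. At their ends Abd-B had 1.85, and Ubx and abd-A had no region.

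The tissue of origin was checked only as far as accessibility allows. Of 8 genes of the wing and haltere disc, 6 had a region at an end and 3 a strong one (wg with a fold of 8.64, nub with 5.18 and ap with 5.03). Neuron genes had 1 of 4, a strong one at elav with a fold of 5.69. Muscle genes had 2 of 4, of which Mef2 was strong with 3.14. Blood cell genes had 3 of 5 and fat body genes 3 of 3, none of them strong. With 68.6% of all protein-coding genes carrying a region at an end and 11.4% a strong one, these small counts neither show nor deny the label, and no expression values were analysed here.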

How the data were processed

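For ATAC-seq of ML-DmD17-c3 cells (2 libraries, 1 group) the authors deposited a single peak list, which has 10 columns, no header and no replicate named. Tools in the submitters' processing notes, with no role given, are bedtools 2.29.2, MACS2 2.2.6, Bowtie2 2.3.5.1, Trim Galore 0.6.4 and SAMtools 1.13; the builds are dm6 and BDGP6. Pooling, duplicate removal and any shift for the transposase are not given in the sources used here, and total depth is unknown. From the layout and the values, the deposited columns hold a score, a fold (ratio) of summit pileup to local background, and the −log10 p-value and −log10 q-value of the summit (lowest −log10 q 1.34). Score and fold are the authors' and only describe and rank regions within the list.

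The pileup was recovered as the whole number that meets both fold, taken as (pileup + 1)/(background + 1), and p, taken as a Poisson tail (relative error up to 2.11e-05; tested on simulated data). The 95% intervals of fold are exact Poisson intervals of this pileup with the background held fixed. Only counting error is in them, and reads without molecular identifiers may be copies of 1 molecule.

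Gene positions came from a RefSeq table of Release 6 (coordinates of dm6; 13946 protein-coding genes), where all 8 members matched by symbol. It has no strand or exons, so either gene end, lower or upper by coordinate, stands in for the planned gene start, with a window of 500 bp on each side and an overlap of at least 1 bp. Regions were placed by summit. Strong regions are the 10% of the list with the highest fold, ties kept (2683 regions, fold of at least 2.999). A planned count of promoter motifs was not run, since no sequence was used here.

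Members, lists and rules were chosen with earlier results of these data known. Named were all members, the 10 highest regions, the highest of each gene and space, those at member ends, and the genes of the lists. With 1 list of 1 group there is no test across samples, and every comparison is a description. Python 3.11.15, numpy 2.4.6, pandas 2.3.3, SciPy 1.17.1 and matplotlib 3.10.9 were used.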

Additional observations from a re-analysis of the deposited data

How the results depend on the processing

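The number of regions was 59, and 55 to 61 with no flank, flanks of 10 kb or placement by summit. Merging within 100 bp joined no regions anywhere in the list, so it tested nothing. In the 50% of the list with the higher score, a smaller list by construction, it was 38, with 13 inside members, against 31 in the full list and 33 by any overlap; pb kept 0 there. The median fold was 2.41 there, where the median of all higher-scoring regions was 2.26, and 2.05 to 2.20 under the other settings. Strong regions numbered 6, 3 when strong meant the 5% with the highest fold, 20 when it meant 20%, and 5 or 6 otherwise. The highest region was the same by fold and by score. It lies in the flank above Antp, so without flanks the site inside Scr, with a fold of 4.70, is the highest. Members with a region at an end numbered 5 or 6, pb being the one lost, and each side alone, lower or upper, gave 4. No share over all genes was computed for a single side, and the share at either end is not a like measure. Single sides, ties left out and the lowest background were chosen after seeing the data. No paired analysis was possible because the replicates are not separate in the peak list, and none could be left out.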
